A study of Mus musculus with 6 samples.

Results

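The loci described here are the small noncoding RNA genes of a METTL3-RIP table: the rows whose symbol was that of a microRNA (miRNA), a small nucleolar RNA (snoRNA), a small Cajal body RNA (scaRNA) or an Ensembl small RNA prediction numbered from Gm22000 to Gm25999. The rule used symbols only, and it took 57 of 2652 genes. Of these, 18 carried a Mir symbol, 11 a Snora, Snord or Scarna symbol and 28 a Gm symbol. By GENCODE M21 type, 22 were miRNA, 28 snoRNA, 1 scaRNA, 3 snRNA, 2 misc_RNA and 1 rRNA loci. METTL3 is the enzyme that writes N6-methyladenosine (m6A) on RNA. In RNA immunoprecipitation sequencing, the RNA that an antibody brings down with its protein is sequenced beside the RNA of the whole lysate. All 6 libraries came from sorted splenic NK cells of wild-type C57BL/6 mice, in which a month of IL-15 expression from an injected plasmid (pLIVE-IL-15) had enlarged the NK cell pool. A minor part of each lysate gave 3 input libraries and the rest gave 3 METTL3-RIP libraries, so both groups share genotype and treatment and differ in the antibody step. The methods give an age range for the mice of the study as a whole and none for these mice, and the labels do not say whether the libraries of a group came from separate mice, so that p-values measure the spread between these libraries, which may be technical.

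A miRNA is cut from a hairpin within a longer primary transcript by Drosha and then Dicer, and the mature RNA pairs with messenger RNA through its seed in an Argonaute protein. Many miRNA hairpins lie in introns, and a mirtron is a hairpin set at the ends of an intron, which splicing releases without Drosha. SnoRNAs guide chemical modification of ribosomal RNA. Those with C and D boxes direct 2′-O-methylation and those with an H box and an ACA box direct pseudouridylation, and scaRNAs do the same for spliceosomal RNA. In mammals most snoRNAs are trimmed out of the spliced introns of host genes, many of which code for ribosomal proteins or translation factors or make a noncoding RNA such as Gas5.

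The snoRNA sequences that follow are those of 6 guide RNA loci among the 10 loci highest in METTL3-RIP, where Snora74a is left out, and of the H/ACA locus in nucleolin. They show which family each belongs to. They are the genome sequence of each locus in GRCm38, 5′ to 3′ on its own strand. Capitals mark a C box (TGATGA within the first 20 bases) and a D box (CTGA within the last 20 bases), or an ACA box that lies 2 to 4 bases from the 3′ end.
Gm24339: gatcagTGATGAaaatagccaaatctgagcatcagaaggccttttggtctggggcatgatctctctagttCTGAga
Gm25835: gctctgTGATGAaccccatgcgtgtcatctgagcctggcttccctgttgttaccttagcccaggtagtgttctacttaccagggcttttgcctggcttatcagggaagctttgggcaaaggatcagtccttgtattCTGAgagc
Gm22357: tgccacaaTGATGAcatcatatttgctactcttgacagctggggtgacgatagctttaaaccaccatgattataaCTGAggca
Gm24452: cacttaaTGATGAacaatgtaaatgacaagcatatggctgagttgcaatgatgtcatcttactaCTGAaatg
Scarna9: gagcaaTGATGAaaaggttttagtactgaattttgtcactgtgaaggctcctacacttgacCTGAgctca
Snora21: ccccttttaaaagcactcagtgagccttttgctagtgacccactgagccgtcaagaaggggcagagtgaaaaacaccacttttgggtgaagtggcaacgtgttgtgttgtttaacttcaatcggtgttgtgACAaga
Snora75: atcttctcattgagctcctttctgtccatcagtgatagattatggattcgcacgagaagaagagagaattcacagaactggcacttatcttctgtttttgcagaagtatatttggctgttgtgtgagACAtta
Gm24339 (chr9:15326464-15326539, minus strand) and Scarna9 (chr9:15326264-15326333, minus strand) lie in the same intron of Cep295, a centrosome protein gene. Gm25835 (chr11:69668852-69668995, minus strand) lies in an intron of Eif4a1, which codes for a translation initiation helicase. Gm22357 (chr1:161036057-161036139, plus strand) is in Gas5, and Gm24452 (chr19:8724531-8724602, plus strand) is in Snhg1, both noncoding snoRNA host genes. Snora21 (chr11:97781639-97781775, minus strand) lies in an intron of the ribosomal protein gene Rpl23, and Snora75 (chr1:86351169-86351301, minus strand) is in Ncl, which codes for nucleolin. Over all 28 loci of snoRNA type, 9 (32.1%) held both boxes of the C/D pair, against 20.5% of 1507 annotated snoRNA loci. An ACA box was found in 15 loci (53.6%), against 43.5% of annotated loci. Mir5117 met both definitions. Only the strand of the locus was searched.

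The Gas5 gene gave 5 loci of the table, with Gm22357 among them, and the remaining sequences of that host are given to show that its miRNA symbol belongs to the C/D family too.
Gm23212: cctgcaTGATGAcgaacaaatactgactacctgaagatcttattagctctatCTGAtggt
Snord78: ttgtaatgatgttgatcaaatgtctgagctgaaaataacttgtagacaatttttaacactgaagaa
Mir5117: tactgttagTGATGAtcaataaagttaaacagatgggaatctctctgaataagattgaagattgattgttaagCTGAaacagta
Snord80: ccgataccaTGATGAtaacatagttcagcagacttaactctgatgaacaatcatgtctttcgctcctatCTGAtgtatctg
These lie at chr1:161036682-161036741 (Gm23212), chr1:161036984-161037049 (Snord78), chr1:161037356-161037439 (Mir5117) and chr1:161037601-161037681 (Snord80), all on the plus strand. Mir5117 is a snoRNA in GENCODE M21 and held a C box and a D box.

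Mature sequences are given for the miRNA loci with the highest level, for some of those at the end of an intron and for the best-known miRNA of the table. They are from RefSeq on GRCm38.p6, read for 16 of 18 Mir symbols, and capitals mark the seed (bases 2 to 8).
mmu-miR-8104: cAGGAUGAgguggagugcagcg
mmu-miR-3109-5p: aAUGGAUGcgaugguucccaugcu
mmu-miR-1960: cCAGUGCUguuagaagagggcu
mmu-miR-23a-3p: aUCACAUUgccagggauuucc
mmu-miR-7001-3p: cGCUCACAcucccucugcag
mmu-miR-7045-3p: uCUCCCCCcucccccgcacag
mmu-miR-7078-3p: uACUUUUUuuaucauccacag
mmu-miR-6914-3p: uCUGUCCAccucuucccag
mmu-miR-5101: uUUGUUUGuuuugcugaugcag
mmu-miR-6999-3p: cUUCAGCUguccuccuuucugu
mmu-miR-6948-3p: uGUCCUUCcugucugaccaca
No seed was shared between listed loci. The mature miR-7001-3p, miR-7045-3p, miR-7078-3p, miR-6914-3p and miR-5101 each ended at the last base of an annotated intron, and each ended in AG, the bases that close an intron. Other loci that hold an intron end did not share this. No mature sequence read for Mir6999, Mir6948, Mir3062, Mir6903 or Mir8107 ended there, and none was read for Mir6979. The 4-base sequence GGAC, the core of the most used m6A motif, was present in 7 of 22 miRNA loci (31.8%, against 26.0% of 2202 annotated) and in 5 of 28 snoRNA loci (17.9%, against 20.4%), on the strand of the locus.

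To ask how these loci stood in METTL3-RIP against input, their levels were compared in RPKM, that is reads per kilobase of exon and megaread of library. Values of all 57 loci were higher in METTL3-RIP with an adjusted p under 0.05 (limma on log2(RPKM + 1)), but this was true of 99.9% of all genes tested. The table lists genes chosen by the authors for a higher level in METTL3-RIP, so the direction is fixed by that choice and the count says nothing particular about small RNA. The METTL3-RIP and input values did not overlap in 55 loci, and they did not in 99.8% of the 2652 genes. The exceptions were Gm25500 and Mir7650, which overlap each other in the genome. The plot of loci by library shows the individual values.

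**Figure D1:**
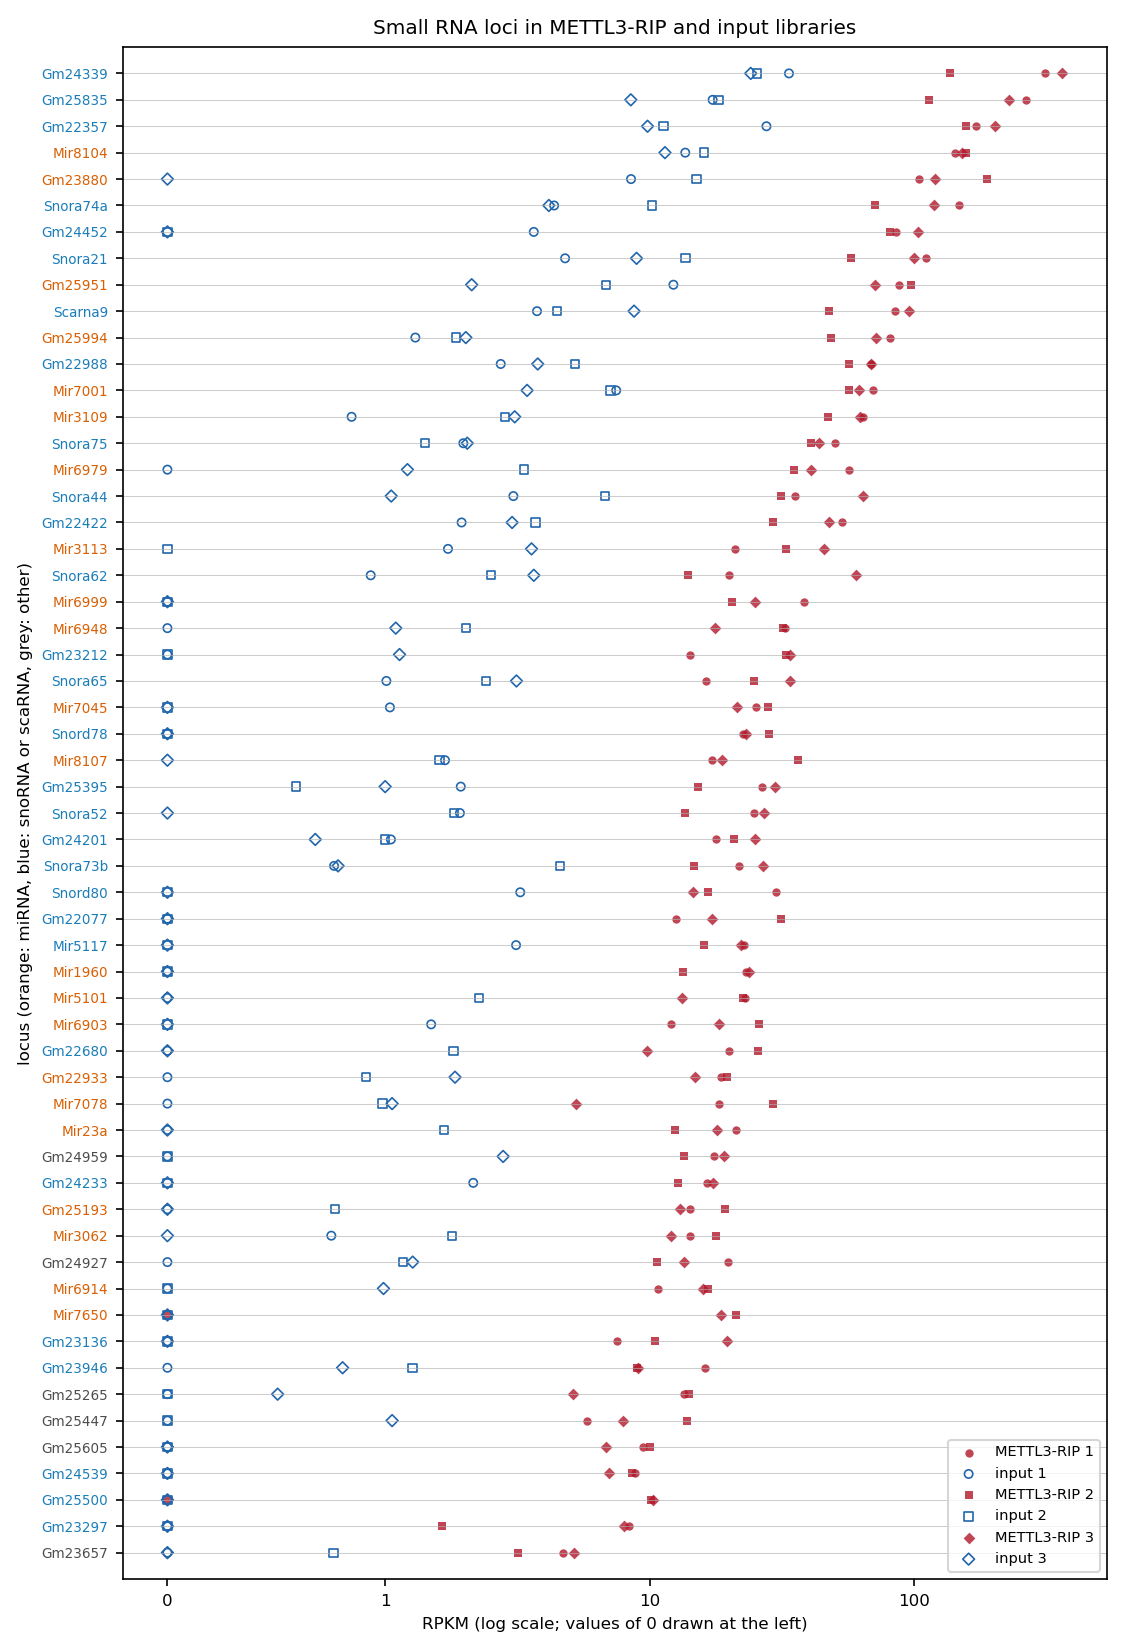
RPKM of the 57 small RNA loci (log axis) in 3 METTL3-RIP libraries (filled red) and 3 input libraries (open blue), ordered by mean METTL3-RIP level, with values of 0 at the left. METTL3-RIP symbols lie to the right of the input symbols except for Mir7650 and Gm25500, which have 0 in METTL3-RIP replicate 1.

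What differed among the loci was the level and the size of the difference. Mean METTL3-RIP levels ran from 4.36 RPKM (Gm23657, in an intron of the ubiquitin ligase gene Ubr2) to 272 RPKM (Gm24339), with a median of 21.9 RPKM. Over all listed genes the median was 3.04 RPKM. Median input levels were 0.931 RPKM for the loci and 0.190 RPKM for all listed genes. The loci are short, with a median length of 99 nt (54 to 347 nt) against 5217 nt of exon for all listed genes, and had a median of 68 METTL3-RIP reads summed over 3 libraries against 360 reads. A read that only partly lies in a short locus can count in full, which raises RPKM for short loci, and the part of this in the levels was not tested.

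The median log2 fold change was 3.58 for the loci and 1.72 for all listed genes, on the log2(RPKM + 1) scale, where a fold change grows with the level (shown in the plot of difference against level). The plain ratio of mean RPKM does not depend on the level in this way. Its median was 19.5 over the 47 loci with input reads (9.77 to 83.5) and 14.4 over 2487 genes. With the loci at 0 in all inputs set at their lower bound, the medians were 18.02 for the loci and 13.8 for all listed genes. The lowest ratio of any listed gene was 9.14, which shows where the table begins. The loci had a median of 4 input reads summed over 3 libraries, against 38 for all listed genes. The part of these few reads and of the cut in the gap between the medians was not tested. When each library was centred on its median gene, every log2 fold change fell by 1.76. All 57 loci stayed above 0, the lowest at 0.40, and 52 of them were still called higher, where 39.4% of listed genes were. Centring keeps the log2(RPKM + 1) scale, and only 218 of the 2652 listed genes reached the METTL3-RIP level of the median locus. Shares of listed genes above 0 or called at like levels are not given here. These counts therefore say nothing particular about small RNA.

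**Figure D2:**
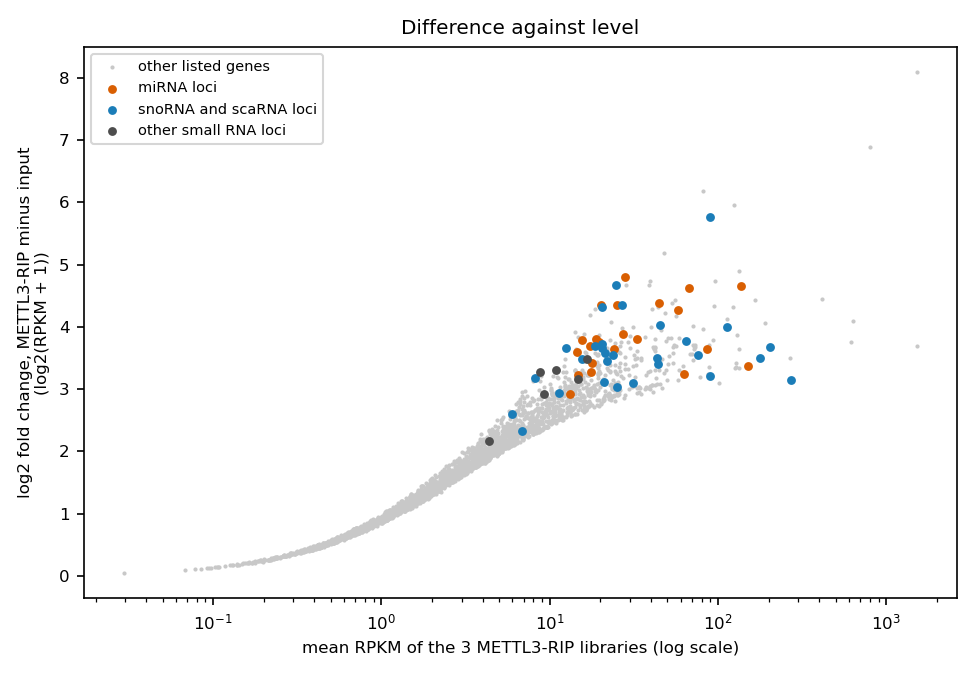
Log2 fold change (METTL3-RIP minus input, on log2(RPKM + 1)) against mean METTL3-RIP level (RPKM, log axis) for miRNA loci (orange), snoRNA and scaRNA loci (blue), other small RNA loci (dark grey) and the other listed genes (light grey). The fold change rises with the level over the whole table, and the 57 loci lie on the right side of the cloud, between 2.16 and 5.76.

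The box C/D loci held the highest levels. In a poly(A) library, reads of a mature snoRNA or scaRNA and of an unspliced or retained-intron host cannot be told apart. The levels given for guide RNA loci are therefore those of the locus, not of the mature RNA. Gm24339 had 314, 137 and 364 RPKM in METTL3-RIP replicates 1, 2 and 3 and 33.7, 25.5 and 24.2 RPKM in input. Its lowest METTL3-RIP library was still well above all inputs, and the ratio of means was 9.77 (log2 fold change 3.14 ± 0.37 (SE, n = 3), limma adjusted p = 5.12e-05). Scarna9, named for a Cajal body RNA and placed in the same intron of Cep295, had 85.1, 47.6 and 95.6 RPKM against 3.75, 4.47 and 8.74 RPKM. Both loci were lowest in METTL3-RIP replicate 2, and their ratios of means were 9.77 and 13.5. They are the only small RNAs annotated on the strand of Cep295, and Cep295 itself was outside the table.

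Eif4a1 held a C/D and an H/ACA locus. Gm25835, with the most METTL3-RIP reads of all loci (907), had 266, 114 and 229 RPKM in METTL3-RIP and 17.3, 18.2 and 8.50 RPKM in input. It was 13.8 times input (log2 fold change 3.68 ± 0.39, adjusted p = 2.42e-05). Gm22988, its H/ACA neighbour, had 68.7, 57.1 and 68.8 RPKM against 2.74, 5.21 and 3.78 RPKM, or 16.6 times input. Replicate 2 was lowest in both, by far in Gm25835 and slightly in Gm22988. Of the 31-base words of Gm22988, 42.1% occur elsewhere in the genome, so its reads are less certain.

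In Gas5, 5 of 10 annotated small RNAs were listed. Gm22357 stood out by level, with 172, 158 and 203 RPKM in METTL3-RIP and 27.7, 11.3 and 9.83 RPKM in input (10.9 times input, log2 fold change 3.51 ± 0.36, adjusted p = 2e-05). The other Gas5 loci lay between 20.4 and 27.0 RPKM on average. Snord78 had 22.6, 28.4 and 23.1 RPKM in METTL3-RIP and no read in input. Against a floor of 3 reads in each input library, METTL3-RIP was at least 8.30-fold higher. Gm23212 had 51 METTL3-RIP reads and 1 input read, a ratio per library read of 76.0 with a 95% counting interval of 13.0 to 3060. Mir5117 (22.8, 16.1 and 22.2 RPKM) and Snord80 (30.2, 16.7 and 14.6 RPKM) were each at 0 in input replicates 2 and 3 and at 3.13 and 3.24 RPKM in input replicate 1. Input replicate 1 was thus the highest input library for 3 of the 5 Gas5 loci.

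Snhg1 held the locus with the largest log2 fold change on the log2(RPKM + 1) scale, though not the largest plain ratio. Gm24452 had 85.7, 80.9 and 103 RPKM in METTL3-RIP and 3.65, 0 and 0 RPKM in input, so that the log2 fold change was 5.76 ± 0.55 (adjusted p = 1.27e-05). This rests on 202 METTL3-RIP and 4 input reads, a ratio per library read of 75.2 with a 95% interval of 28.9 to 279. Of 8 small RNAs annotated in Snhg1, 2 were listed.

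All Snora loci but Snora44 held an ACA box by the definition used here. Snora74a, with 681 METTL3-RIP reads, had 148, 71.1 and 119 RPKM in METTL3-RIP and 4.36, 10.2 and 4.16 RPKM in input (18.02 times input, log2 fold change 4.01 ± 0.37, adjusted p = 9.71e-06). Snora21 had 111, 57.7 and 100 RPKM against 4.79, 13.7 and 8.93 RPKM, 9.81 times input. In both, METTL3-RIP replicate 2 was lowest and input replicate 2 highest, and the groups did not overlap, as in 99.8% of listed genes. Snora75, in an intron of nucleolin, was more even, with 50.4, 40.7 and 43.9 RPKM against 1.98, 1.41 and 2.04 RPKM (log2 fold change 4.04 ± 0.14, adjusted p = 1.37e-07). Snora62, in the ribosomal protein gene Rpsa, was the least even, with 19.99, 13.96 and 60.2 RPKM against 0.882, 2.52 and 3.65 RPKM. Snora44 (43.7 ± 17.9 RPKM, SD, n = 3), Snora65 (25.0 ± 8.76 RPKM), Snora52 (21.9 ± 7.23 RPKM) and Snora73b (21.1 ± 6.09 RPKM) had ratios between 10.8 and 17.6. Snora73b belongs to the U17 family, which works in ribosomal RNA processing. Repeated 31-base words made up 72.0% of Snora65, 45.1% of Snora73b, 39.8% of Snora75 and 28.97% of Snora21. Copies of these genes elsewhere could therefore share their reads.

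The locus of scaRNA type, Gm25395, is the longest of the guide RNAs at 272 nt and lies in an intron of the autophagy gene Atg16l1. It had 26.6, 15.3 and 29.9 RPKM in METTL3-RIP and 1.93, 0.460 and 0.9997 RPKM in input, 21.2 times input (log2 fold change 3.55 ± 0.31, adjusted p = 6.85e-06). As in most guide RNA loci, replicate 2 was the lowest METTL3-RIP library.

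Among miRNA loci, Mir8104 had the highest and most even level, with 143, 158 and 153 RPKM in METTL3-RIP and 13.7, 16.1 and 11.4 RPKM in input (11.01 times input, log2 fold change 3.38 ± 0.17, adjusted p = 3.18e-07). Its 101 nt lie wholly in the coding sequence of Ppm1h, a phosphatase gene. Gm25951, a predicted miRNA of 64 nt wholly in the coding sequence of Rcc2, had 88.1, 97.5 and 71.4 RPKM against 12.3, 6.84 and 2.12 RPKM. Gm23880, in an exon of the acetyltransferase gene Ep300, had 104, 189 and 121 RPKM against 8.51, 15.1 and 0 RPKM, and its input spread gave the log2 fold change of 4.65 an SE of 0.92. Gm25994, in an exon of the RNA helicase gene Ddx5, had 81.1, 48.4 and 72.1 RPKM against 1.30, 1.86 and 2.02 RPKM, which was 38.9 times input.

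Further miRNA loci had lower levels. Mir7001, in the tetraspanin gene Cd82, averaged 62.9 ± 6.73 RPKM (SD, n = 3) in METTL3-RIP and 6.02 ± 2.24 RPKM in input. Mir3109, in an intron of the annexin gene Anxa2, averaged 58.0 ± 9.28 RPKM against 2.23 ± 1.29 RPKM. Mir23a, whose mature RNA belongs to a well-known cluster with miR-27a and miR-24, had 21.3, 12.5 and 18.1 RPKM against 0, 1.67 and 0 RPKM. That is 40 METTL3-RIP reads and 2 input reads, with a ratio per library read of 29.8 and a 95% interval of 7.73 to 254.5. Mir1960, in the fatty acid oxidation gene Hadhb, had 23.2, 13.3 and 23.9 RPKM and no input read, at least 8.01-fold higher. Mir6999, in an intron of the diacylglycerol kinase gene Dgkz, had 38.4, 20.5 and 25.0 RPKM and no input read, at least 8.69-fold higher. The medians of the ratio with such loci at their bound were 23.99 for the 22 miRNA loci and 13.6 for the 28 snoRNA loci. All inputs were at 0 in 3 of the miRNA and 6 of the snoRNA loci, which enter at a lower bound. Over loci with input reads alone the medians were 26.0 (19 miRNA loci) and 17.0 (22 snoRNA loci). Median input reads per locus, summed over 3 libraries, were 3 and 7, and the difference between the classes was not tested. A poly(A) library of size-selected products is not made to capture mature miRNA, so these levels are not those of mature miRNA. In it, reads of a hairpin, the primary transcript and host RNA, spliced or unspliced, cannot be told apart.

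A part of the miRNA loci shared a position. In 11 of 22 (50%) the locus held the last base of an annotated intron, against 12.03% of all 2202 annotated miRNA loci. All 11 carry a Mir symbol and none a Gm symbol. The annotated loci were taken whether or not their hosts are expressed in these cells, and the difference was not tested. It was the case in none of the 28 snoRNA loci and in 0.199% of the 1507 annotated. In 6 of the 11 the locus ended exactly there (Mir6999, Mir7045, Mir6979, Mir6948, Mir7078 and Mir7001), and in the other 5 it ran between 2 and 22 nt into the next exon (Mir3062, Mir6903, Mir6914, Mir5101 and Mir8107). The hosts of these 5 are all listed genes, and reads of their spliced RNA can count in the locus. The first base of an intron lay in 1 locus, Mir3062, so this locus alone held both kinds of intron end. The plot of loci against the intron end shows this layout.

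**Figure D3:**
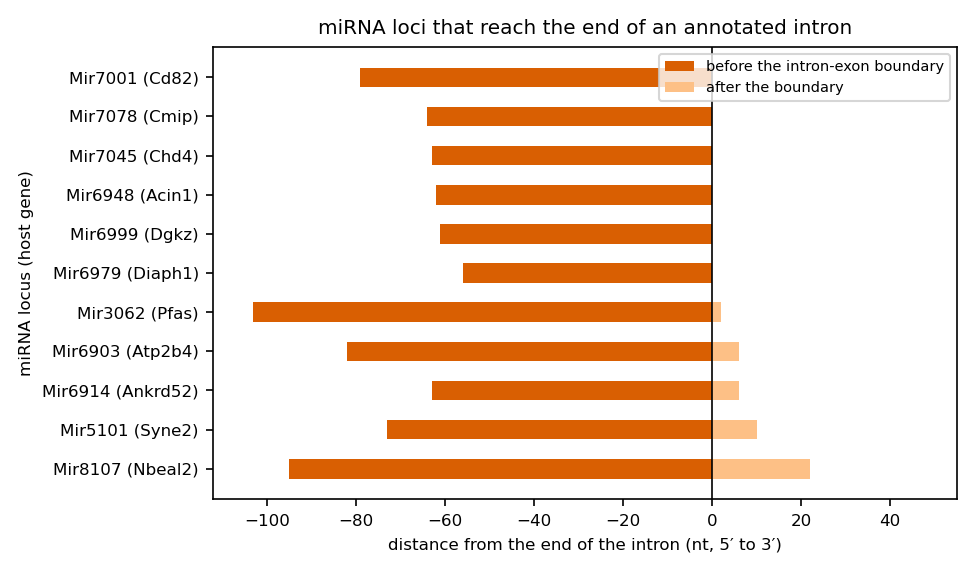
Extent of the 11 miRNA loci that hold the last base of an annotated intron, in nt from the intron-exon boundary, with the host gene in brackets. Dark bars lie before the boundary and light bars after it, and 6 loci end at the boundary.

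These 11 loci had METTL3-RIP means from 14.4 RPKM (Mir6914) to 62.9 RPKM (Mir7001). Mir7045, at the end of an intron of the chromatin remodeller gene Chd4, had 25.3, 28.1 and 21.5 RPKM against 1.04, 0 and 0 RPKM, on 48 METTL3-RIP reads and 1 input read (ratio per library read 71.5, 95% interval 12.2 to 2883). Mir7078, in Cmip, was the least even, with 18.3, 29.3 and 5.29 RPKM against 0, 0.977 and 1.06 RPKM. Mir6948, in the splicing factor gene Acin1, had 32.6, 31.9 and 17.8 RPKM against 0, 2.02 and 1.10 RPKM. Groups did not overlap for any of the 3, as for 99.8% of listed genes.

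Of the 57 loci, 54 lay within 46 genes on the same strand. The exceptions were Mir23a, Gm25265 and Gm22933, the last 2 named after their values were seen. Gm25265 and Gm22933 lie opposite the listed genes Prex1 and Synj1. Whether strand was used in counting is not stated, so their reads cannot be told apart from those of these genes. A total of 25 loci lay in introns, 23 wholly in annotated exons and 6 partly. In 17 loci the exon belonged to retained-intron transcripts only. Together 42 loci lay in introns or in such exons, 26 of the 28 snoRNA and 10 of the 22 miRNA loci. Some other loci, such as Mir7045, Gm25994 and Snora44, lay in an exon of some host transcripts and in an intron of others, and are not in this count. Host genes were in the table for 11 of the 22 miRNA loci and for 1 of the 28 snoRNA loci. Hosts outside it, such as Gas5, Snhg1, Eif4a1, Cep295 and the ribosomal protein genes, were not analysed here.

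For the 15 loci with a listed host, the METTL3-RIP level of the locus was compared with that of the host's exons, both in RPKM. The locus was the higher in 13, and over all 15 it stood at a median of 2.31 times the host (0.177 to 20.8). A read that lies only partly in a locus can count in full. This raises RPKM more for a short locus than for the long exons of its host, and its part in these gaps was not tested. The largest gap was that of Mir8104. Ppm1h had 7.32, 8.03 and 6.41 RPKM in METTL3-RIP, so the miRNA locus was 20.8 times its host, and 19.3 times in input. Reads at Mir8104 came to 19.3%, 19.4% and 23.5% of the number of reads counted for Ppm1h in the 3 METTL3-RIP libraries, although the locus is 101 of 10226 exonic nt. The host itself was 10.2 times input, so host and locus, which share sequence, had similar ratios. Gm25951 was 7.30 times Rcc2 and Gm23880 8.24 times Ep300.

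Snora74a showed the same within a noncoding host. It lies in a retained-intron transcript of the gene that the table names Snhg4 (in GENCODE M21 AC121821.1, matched by its exon length of 4666 nt). Snhg4 had 6.98, 3.43 and 5.83 RPKM in METTL3-RIP and 0.296, 0.563 and 0.291 RPKM in input. Reads at Snora74a came to 88.9%, 87.0% and 85.7% of the reads of Snhg4 in METTL3-RIP replicates 1, 2 and 3. Low replicate 2 in METTL3-RIP and high replicate 2 in input were seen in both, which share sequence. Whether a read could count for both is not stated. Loci below their host were Mir7045, at 0.188 times Chd4 (133 ± 8.71 RPKM, SD, n = 3), and Gm23657, at 0.177 times Ubr2 (24.6 ± 3.68 RPKM). The ratio to input was higher for the locus than for the host in 10 of 14 pairs with input reads for both, and medians were 19.6 for loci and 14.5 for the 15 hosts. Loci and hosts alike had been picked for a higher level in METTL3-RIP. The 57 loci had a median of 4 input reads summed over 3 libraries, against 38 for all listed genes. With so few reads and such a choice, the count cannot show a difference between locus and host.

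**Figure D4:**
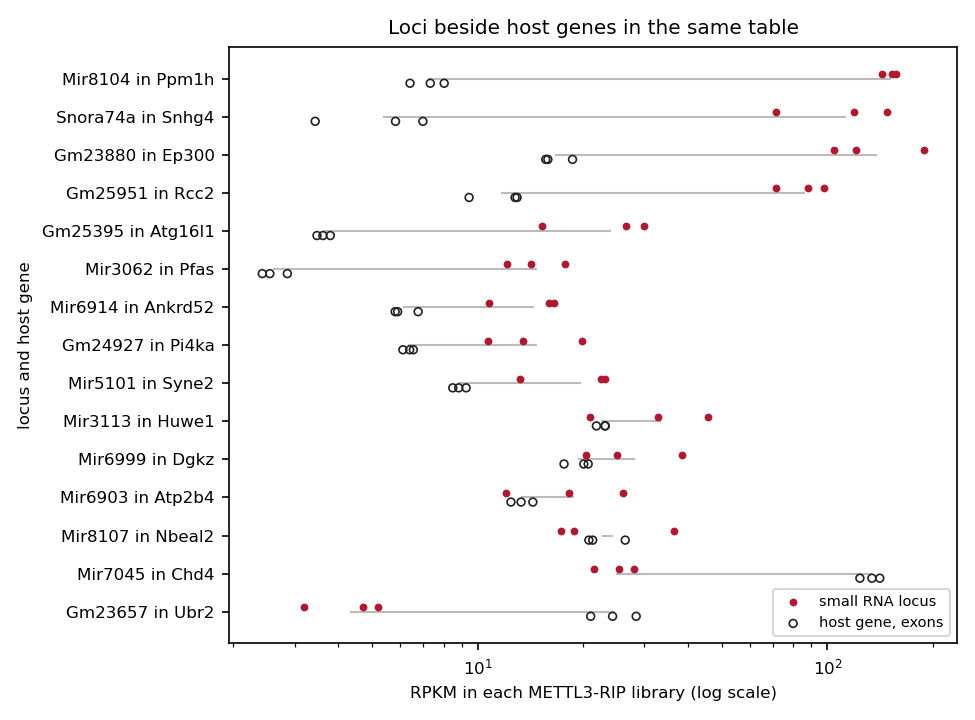
RPKM in each METTL3-RIP library (log axis) of 15 small RNA loci (filled) and of the exons of their host genes (open), with a grey line between the 2 means. In 13 pairs the mean of the locus exceeds that of the host, and Mir7045 in Chd4 and Gm23657 in Ubr2 lie below.

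The METTL3-RIP libraries did not vary alike for the classes. Reads summed over the 29 snoRNA and scaRNA loci were 201, 128 and 211 per megaread of the library in METTL3-RIP replicates 1, 2 and 3, and 12.8, 14.5 and 9.52 in input. Over the 22 miRNA loci the METTL3-RIP sums were 70.4, 75.2 and 68.2 and the input sums 4.01, 5.06 and 2.72. By this sum, which the most abundant loci dominate, replicate 2 was the low METTL3-RIP library for guide RNAs and not for miRNA loci. By the median locus it was not, as the median RPKM of the guide RNA loci was 22.8, 25.6 and 29.9 in METTL3-RIP replicates 1, 2 and 3. Replicate 2 was the lowest in 19 of the 29 guide RNA loci (65.5%) and 7 of the 22 miRNA loci (31.8%), against 18.7% of all listed genes, for which replicate 3 was most often lowest (59.3%). The median coefficient of variation over METTL3-RIP libraries was 33.8% for snoRNA loci, 25.6% for miRNA loci and 15.5% for all listed genes. Replicate 2 had 9613292 library reads, between the 9401509 of replicate 1 and the 11809744 of replicate 3, and the part of the library in these differences was not tested. Without METTL3-RIP replicate 2 the median log2 fold change of the 57 loci was 3.61.

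**Figure D5:**
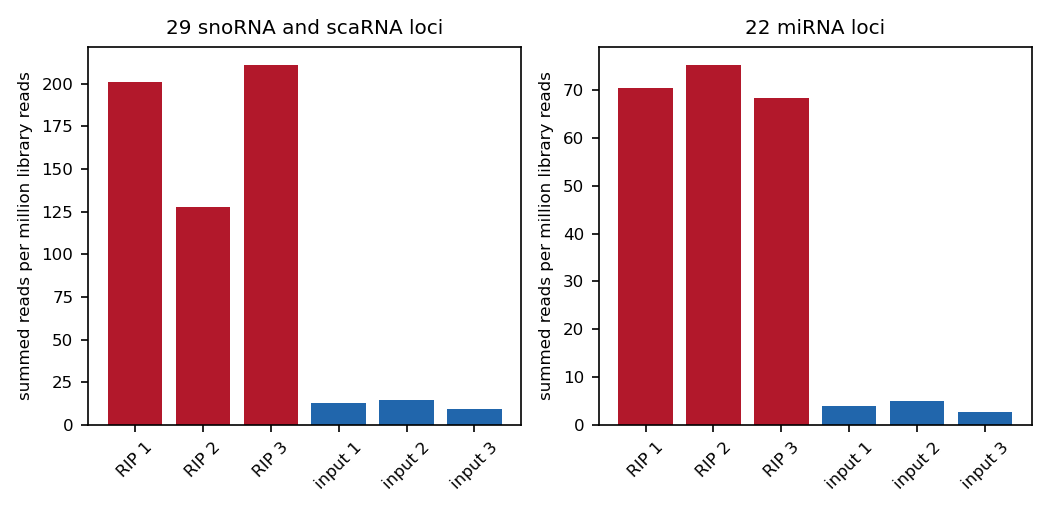
Reads summed over 29 snoRNA and scaRNA loci (left) and 22 miRNA loci (right), per megaread of each library, in METTL3-RIP (red) and input (blue). METTL3-RIP replicate 2 is the lowest of its group on the left (128) and the highest on the right (75.2), and the vertical scales differ.

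Input libraries were thin on these loci, with 37 of 57 at 0 in at least 1 input library, 39 with under 10 input reads in all and 14 with 1 to 3. In 10 loci all inputs were at 0, and for these a floor of 3 reads in each input library was assumed. The lower bounds of the fold ran from 3.89 (Gm23297) to 9.67 (Gm22077, in the ribosomal protein gene Rpl3), and intervals and floors cover counting error only. The weakest loci were Gm25500 and Mir7650 in the Taf1d gene, a snoRNA host. Gm25500 had 0, 12 and 15 reads and Mir7650 0, 12 and 13 reads in METTL3-RIP, and neither had input reads. The 59 nt of Mir7650 lie within Gm25500, so the same reads may count in both. Both had an adjusted p of 0.0267 (limma), and without METTL3-RIP replicate 1 their log2 fold changes rose from 2.33 to 3.49 and from 2.92 to 4.38. Leaving out METTL3-RIP replicate 2 or 3 or any input library ended both calls (adjusted p from 0.0535 to 0.114). Sequence that occurs elsewhere made up all 31-base words of the Gm24539 and Gm25193 loci, named after their values were seen, and 14 loci held some.

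Loci of other types had low levels. The 3 snRNA, 2 misc_RNA and 1 rRNA predictions had METTL3-RIP means of 4.36 to 16.7 RPKM and log2 fold changes of 2.16 to 3.49. Their plain ratios to input were not low, with a median of 20.5 over the 5 with input reads. Gm25265, named after its values were seen, had the highest ratio of means of the 57 loci, 83.5, on 112 METTL3-RIP and 2 input reads (ratio per library read 83.4, 95% interval 22.6 to 697). Gm25447, an rRNA prediction in an intron of Abcg1, had 5.82, 13.8 and 7.94 RPKM against 0, 0 and 1.06 RPKM. The 57 loci are a small part of each class. They make up 0.999% of annotated miRNA, 1.86% of snoRNA and 0.217% of snRNA loci, and the rest were outside the table.

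Genes that make or use small RNA were read from lists. Of 21 genes of miRNA processing and function, 9 were in the table and all 9 were higher in METTL3-RIP (limma, with 99.9% of listed genes called). They were Dicer1, which cuts the hairpin, Xpo5, which exports it, the Argonaute genes Ago1, Ago2, Ago3 and Ago4, and the GW182 genes Tnrc6a, Tnrc6b and Tnrc6c, which carry silencing. Dicer1 had 7.67 ± 0.450 RPKM (SD, n = 3) in METTL3-RIP and 0.296 ± 0.149 RPKM in input, 25.9 times input. Tnrc6b had 15.3 ± 1.32 RPKM against 0.917 ± 0.153 RPKM. Ago4 was the lowest, at 0.191 ± 0.101 RPKM with no input read. Of 18 genes of snoRNA and scaRNA particles, Wrap53, which brings scaRNA to Cajal bodies, was the only gene listed (2.07 ± 0.486 against 0.202 ± 0.0827 RPKM). Of a list of 25 noncoding RNA genes drawn up as hosts of small RNA, Snhg4 and Mir17hg were in the table, the latter at 0.457 ± 0.0195 RPKM. Protein-coding hosts were not on this list. Of 29 markers of NK, T, B, myeloid and erythroid cells none was in the table, so that the labelled cell type could not be checked.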

How the data were processed

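RNA of splenic NK cells was measured in 3 METTL3-RIP and 3 input libraries, grouped by their titles. Per the labels, the RNA was poly(A) RNA and the libraries were made with a stranded mRNA kit. Paired reads were mapped to GRCm38 with STAR 2.5.3a. Counter and annotation are not given in the sources used here. The authors deposited 1 table of gene values by library, whose unit was inferred from the values as RPKM, and their own log2 fold change and p-value, which were not used. The deposited RPKM values were whole multiples of a step (tolerance 0.02 reads) for 83.4% to 84.8% of the values above 0, from which library totals of 9401509 to 15992386 reads and the reads per locus were recovered. GENCODE M21 exon lengths gave whole reads for 2147 genes. For 503 genes the shortest length that gave whole reads was taken, so their lengths and reads may be too low. Medians of length and reads over all listed genes include these genes. All 2652 rows had been picked for being higher in METTL3-RIP, so adjusted p-values do not describe the transcriptome.

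Values were compared as log2(RPKM + 1) without filter by limma 3.58.1 in R 4.3.3 (lmFit, eBayes with trend, two-sided, Benjamini-Hochberg over all 2652 genes, threshold 0.05), which was tested on simulated data. An exact permutation test of 3 against 3 cannot go below p = 0.1 and was not used. The fit had no replicate block. Positions, types and hosts are from GENCODE M21. Of 57 symbols, 56 matched it directly, and Mir7650 matched by its older name. Counting intervals are exact (Clopper-Pearson). Ratios per library read pool the libraries of a group.

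Established Mir, Snora, Snord and Scarna loci could be named, as could Gm loci highest in level or at the ends of the range of fold changes. Values in each library are given for the 10 loci highest in level and the 10 with most reads. Members and lists were chosen with earlier results of these data known. Alternatives were other pseudocounts, a filter, median centring, a replicate block, voom on recovered reads and leaving out each library.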

Additional observations from a re-analysis of the deposited data

How the results depend on the processing

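All 57 loci were past the threshold with pseudocounts of 0.1 and 5, with a filter on mean RPKM of at least 1, with the replicate block and with voom on recovered reads. Replicate numbers are shared between the groups, and the methods split lysates into input and immunoprecipitate, but no source ties a number to a lysate. Deviations of same-numbered libraries from their group means correlated across genes with r of -0.0191, -0.0194 and 0.0781, and 1 of 3 METTL3-RIP libraries correlated best with its own number. The block changed no call among the loci, and 2643 of all genes were called with it against 2650. Median centring left 52 loci called, where 39.4% of listed genes were, and 49 without overlap. This setting keeps the log2(RPKM + 1) scale, where a fold change grows with the level. Leaving out 1 library left 55 to 57 called and 55 to 57 without overlap. In the main fit 99.9% of listed genes were called and 99.8% did not overlap. Shares of all listed genes for the remaining settings are not given here, so these counts say nothing particular about small RNA. The median log2 fold change followed the scale, at 5.09 with a pseudocount of 0.1, 2.15 with 5, 1.82 after median centring and 4.41 with voom. It was 3.44 to 3.61 with 1 library left out and 3.58 with the replicate block. After median centring Gm23657, Gm23297, Gm25500, Mir7650 and Snora62 were not past the threshold (adjusted p from 0.0604 to 0.562, limma), at log2 fold changes of 0.40 to 1.34. The self-test on 2652 genes does not cover loci with few input reads, and in these depth limits the fold.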
